A study of Mus musculus with 6 samples.

Results

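The AP-2 factors Tfap2a, Tfap2b, Tfap2c and Tfap2d were examined together with the transcription factors Barhl2, Lhx9, Nr4a2, Dlx1, Dlx2 and Bhlhe22, which act in amacrine and other inhibitory neuron fates. The members were taken as every probe set that the array's annotation assigned to 1 of these 10 genes alone. They came to 22 probe sets of 9 genes. Bhlhe22 was not analysed here, because no probe set carried its name or gene number in the annotation used. A probe set was kept where the log2 signals of one genotype averaged over 7. That filter was passed by 11 of the 22, from 8 of the 10 genes, and by 20888 of the 45101 probe sets of the array.

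E14 retina RNA from 6 mouse embryos, 3 of them WT and 3 OC1-KO, had been hybridised to Affymetrix Mouse Genome arrays, 1 array an embryo. Both genotypes were of mixed background, from a line made in R1 embryonic stem cells injected into Swiss mice and then crossed to C57Bl/6. OC1-KO embryos lacked Onecut1, a homeodomain transcription factor of early-born retinal neurons, in the whole animal, and WT embryos carried no other allele that the labels name. The labels number the embryos 1 to 3 in each genotype and do not say which littermates the numbers join. Signals of probe sets are log2 of the scaled MAS5 signal throughout, and values of different probe sets were not set against each other. In whole retinas, fewer cells of a type and less RNA per cell cannot be told apart.

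AP-2 factors bind DNA as dimers at GC-rich palindromes. In the retina they are known from newborn amacrine and horizontal cells, where Tfap2a and Tfap2b act together in horizontal cell development and Tfap2d marks subsets of amacrine and ganglion cells. The homeodomain factors Barhl2 and Lhx9, the orphan nuclear receptor Nr4a2 and the bHLH factor Bhlhe22 act in the choice between amacrine subtypes and other inner retinal fates. Dlx1 and Dlx2 are paired homeodomain factors of inhibitory neurons, and in the retina they are known for ganglion cell development.

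The promoters of the genes that the results below turn on are shown first, as 250 bases before and 50 after the start site, from RefSeq on the GRCm38.p6 build. They are those of Tfap2b, Tfap2d, Tfap2a and Lhx9, in each of which 1 probe set over the filter had a difference between the genotypes of opposite sign in embryo 3 to that in embryos 1 and 2, and of Barhl2, which differed between embryos. Capitals mark ATTGAT, the core that Onecut factors recognise, TAATTA, a core of homeodomain factors, and GCCNNNGGC, the AP-2 palindrome, each searched on both strands. Tfap2d has 3 start sites in the table and Tfap2a has 2, of which the first listed is shown.

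Tfap2b, chr1:19211804-19212103, plus strand: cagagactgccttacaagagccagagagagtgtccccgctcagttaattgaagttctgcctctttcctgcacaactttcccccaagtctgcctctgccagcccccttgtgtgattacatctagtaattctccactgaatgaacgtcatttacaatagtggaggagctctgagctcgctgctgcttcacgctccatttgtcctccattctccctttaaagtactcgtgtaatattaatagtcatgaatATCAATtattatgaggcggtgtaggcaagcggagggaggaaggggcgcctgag

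Tfap2d, chr1:19102772-19103071, plus strand: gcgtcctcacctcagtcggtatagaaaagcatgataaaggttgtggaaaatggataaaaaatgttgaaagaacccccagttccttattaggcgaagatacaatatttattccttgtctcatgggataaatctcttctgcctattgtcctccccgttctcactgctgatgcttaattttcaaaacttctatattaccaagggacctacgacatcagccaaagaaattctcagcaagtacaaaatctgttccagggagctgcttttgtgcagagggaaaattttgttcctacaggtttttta

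Tfap2a, chr13:40734871-40735170, minus strand: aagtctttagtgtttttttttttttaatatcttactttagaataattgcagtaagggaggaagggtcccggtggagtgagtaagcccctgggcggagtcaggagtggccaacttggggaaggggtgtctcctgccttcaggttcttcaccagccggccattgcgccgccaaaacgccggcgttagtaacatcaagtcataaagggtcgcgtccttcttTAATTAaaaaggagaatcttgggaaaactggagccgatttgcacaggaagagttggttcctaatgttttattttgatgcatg

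Lhx9, chr1:138842395-138842694, minus strand: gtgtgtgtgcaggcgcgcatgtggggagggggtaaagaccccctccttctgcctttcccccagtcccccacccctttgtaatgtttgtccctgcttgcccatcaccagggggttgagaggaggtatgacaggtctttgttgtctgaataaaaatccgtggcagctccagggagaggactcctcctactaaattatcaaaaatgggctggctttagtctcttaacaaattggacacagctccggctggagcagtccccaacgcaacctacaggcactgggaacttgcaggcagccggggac

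Barhl2, chr5:106458117-106458416, minus strand: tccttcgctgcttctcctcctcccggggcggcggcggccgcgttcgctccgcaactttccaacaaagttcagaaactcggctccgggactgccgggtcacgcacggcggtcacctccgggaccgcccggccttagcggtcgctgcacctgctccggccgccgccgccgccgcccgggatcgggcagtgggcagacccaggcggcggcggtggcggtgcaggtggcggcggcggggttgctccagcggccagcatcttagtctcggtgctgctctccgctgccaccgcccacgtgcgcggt

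The promoter table held 11 start sites of 8 members, with none for Tfap2c and Bhlhe22. The Onecut core stood once among the 11, in the Tfap2b window, where it reads ATCAAT on the strand shown and overlaps the start site. Of all 32851 promoters of this length, 7.54% held that core. A second Onecut core, ATTGAC, was in none of the 11 and in 6.27% of all promoters. The homeodomain core was in the first Tfap2a window alone, against 5.29% of all promoters. The AP-2 palindrome occurred 2 times in the Nr4a2 window and in no other member, against 16.6% of all promoters. Tfap2d and Tfap2b are neighbours on chromosome 1 with 0 annotated genes between them, and Dlx1 and Dlx2 are neighbours on chromosome 2 with an antisense RNA gene, Dlx1as, between them. A match of letters is a description of these windows and says nothing about binding.

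Before the members, the arrays were checked against their labels. All 8 of the 10 retina markers with a probe set of their own passed the filter, and their summed signal lay between 57120 and 76516 in the 6 arrays. Onecut1 gave 9.25, 8.76 and 9.005 in WT 1 to 3 and 9.02, 8.31 and 9.67 in OC1-KO 1 to 3 by its brighter probe set. OC1-KO differed from WT by -0.23, -0.45 and 0.66 within the numbers 1 to 3, so the targeted gene was lower in OC1-KO in embryos 1 and 2 and higher in embryo 3, with a mean difference of -0.01 (limma, adjusted p = 1.00). Its dimmer probe set differed by 0.42, -0.92 and -0.01. No source used here places the probe sets of Onecut1 relative to the deleted part, so their signal does not check the labels. Lhx1, a homeodomain factor of horizontal cells below the filter, gave 6.50, 6.65 and 4.70 in WT and 4.17, 3.39 and 6.38 in OC1-KO by its brighter probe set. It was thus lower in OC1-KO in embryos 1 and 2 and higher in embryo 3. Both embryos numbered 3 stood apart. Their summed signal over 14 lens genes was 22366 in WT and 11770 in OC1-KO, against 326 to 547 in the other 4 arrays. Over 5 genes of red blood cells it was 16555 and 23979, against 61.3 to 730. OC1-KO 3 also had the lowest median signal, 85.0, against 97.3 to 104 in the other arrays. Results that rest on the embryos 3 are therefore given with and without them.

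No member passed the test between the genotypes. Of the 11 probe sets over the filter, 5 were higher and 6 lower in OC1-KO, with a median difference of -0.02 on the log2 scale. Over all probe sets tested, 47.7% were higher and the median difference was -0.01. By limma with Benjamini-Hochberg adjustment 0 of the 11 members passed an adjusted p of 0.05, as did 0% of all probe sets, and the lowest unadjusted p among the members was 0.159. At an unadjusted p under 0.05 the members again came to 0, against 1.01% of all probe sets, and with the embryo number as a block to 0 against 4.37%. The signals of WT and OC1-KO overlapped in all 11, while 3.56% of all probe sets had groups that did not overlap.

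**Figure D1:**
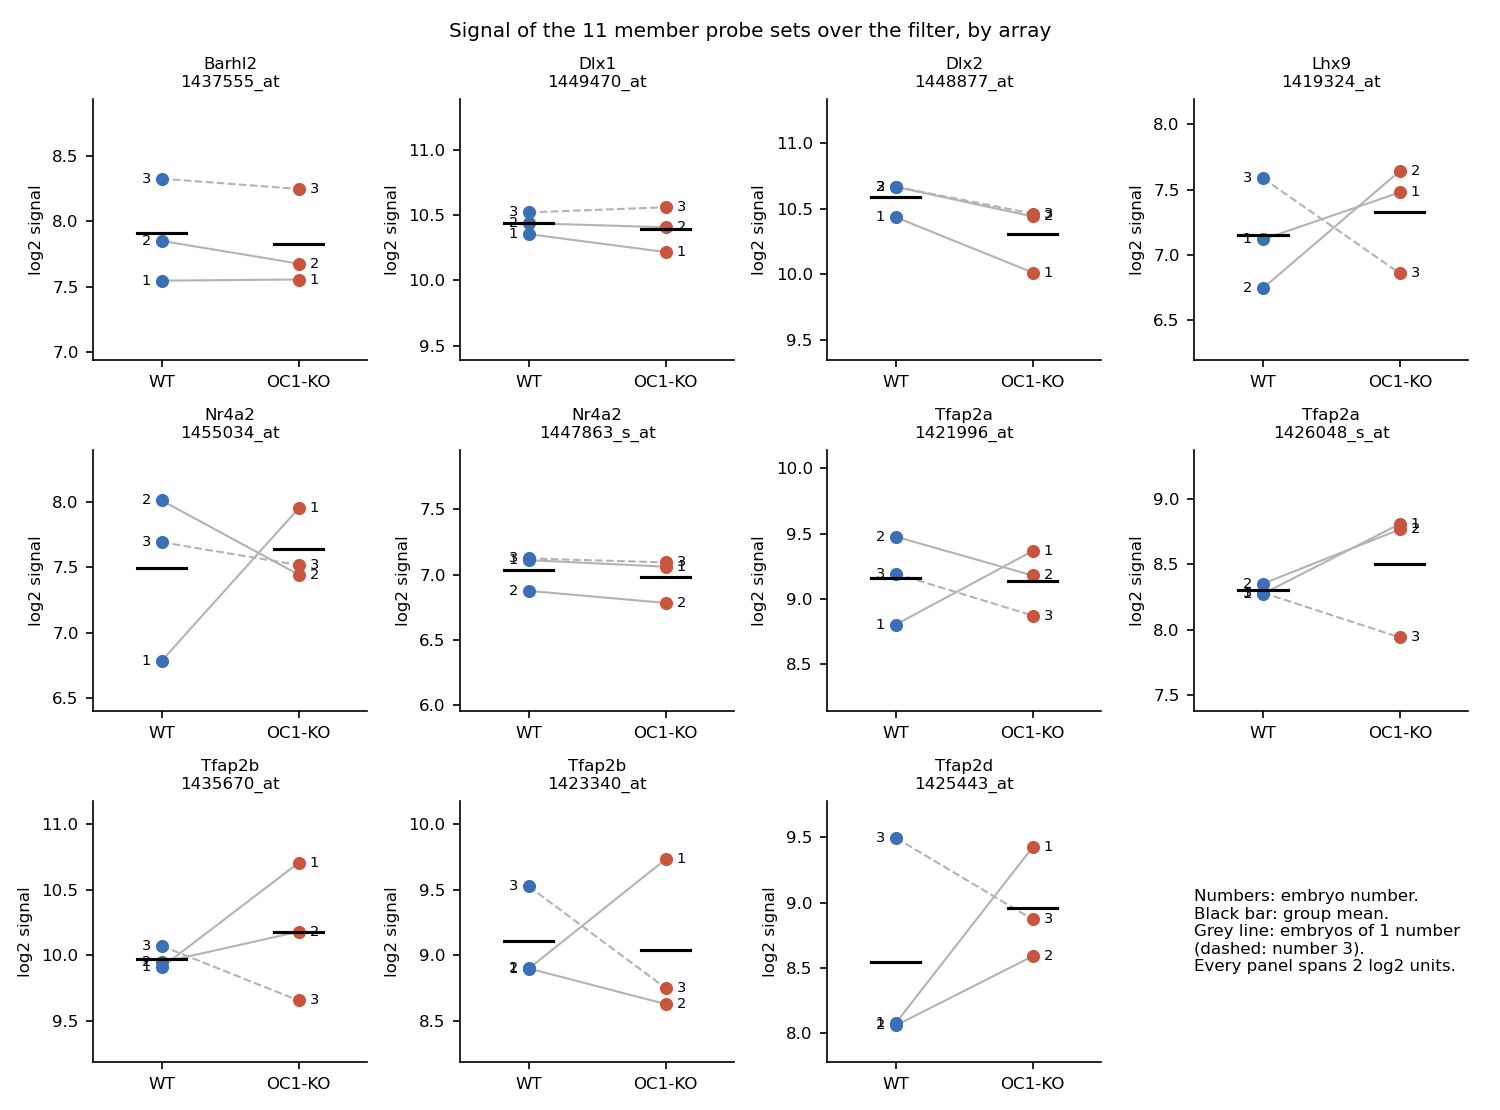
Log2 signal of the 11 member probe sets over the filter in the 3 WT (blue) and 3 OC1-KO (red) arrays, with the embryo number beside each point, the group mean as a black bar and a grey line joining embryos of 1 number. WT and OC1-KO overlap in every panel, and for Tfap2d, Lhx9, Tfap2b 1435670_at and Tfap2a 1426048_s_at the dashed line of embryo 3 slopes down while the other lines slope up.

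Among the AP-2 genes, Tfap2b, the factor used as a marker of amacrine cells, was measured by 2 probe sets over the filter. The brighter, 1435670_at, gave 9.91, 9.94 and 10.07 in WT 1 to 3 and 10.71, 10.18 and 9.65 in OC1-KO 1 to 3. The highest and the lowest of these values were both OC1-KO, around WT values that lay close together. WT averaged 9.97 ± 0.09 and OC1-KO 10.18 ± 0.53 (SD, n = 3), a difference of 0.21 with a 95% interval from -0.43 to 0.84 (limma, adjusted p = 1.00). The second probe set, 1423340_at, gave 8.90, 8.90 and 9.53 in WT and 9.73, 8.63 and 8.75 in OC1-KO, and its difference was -0.07 (limma, adjusted p = 1.00). The probe sets of Tfap2b thus put the mean of OC1-KO on opposite sides of WT, both within the spread.

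Tfap2a, its close relative, also had 2 probe sets over the filter. The brighter, 1421996_at, gave 8.80, 9.48 and 9.19 in WT and 9.37, 9.18 and 8.87 in OC1-KO, and the means differed by -0.02, with an interval from -0.55 to 0.51. For 1426048_s_at the signals were 8.27, 8.35 and 8.28 in WT and 8.81, 8.77 and 7.94 in OC1-KO. OC1-KO 1 and 2 lay above all WT arrays and OC1-KO 3 below them, so the difference of 0.20 had an interval from -0.39 to 0.80. The remaining probe set, 1421995_at, was below the filter at 5.57 to 6.68.

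Tfap2d, the member with the widest range over the filter, gave 8.08, 8.06 and 9.50 in WT and 9.42, 8.59 and 8.87 in OC1-KO. WT 3 was the highest of the 6 arrays, and WT 1 and 2 were the lowest. WT averaged 8.55 ± 0.82 and OC1-KO 8.96 ± 0.42 (SD, n = 3), a 1.34-fold difference with a 95% interval from 0.664 to 2.69 (limma, adjusted p = 1.00). This was the largest difference upward among the 11 members over the filter, and the interval still reached well below 1. On the log2 scale the difference of 0.42 became 0.17 without WT 2, 0.18 without WT 1, 0.19 without OC1-KO 1 and 0.89 without WT 3. Tfap2c, an AP-2 factor of early ectoderm and germ cells, was below the filter by all 3 probe sets. Its brightest gave 7.15, 6.74 and 6.15 in WT and 6.47, 6.20 and 6.61 in OC1-KO. Its dimmest, 1418147_at, was the only 1 of the 22 whose groups did not overlap, with 3.17, 6.26 and 5.58 in WT and 6.32, 6.59 and 6.39 in OC1-KO. An exact permutation test gave p = 0.1, two-sided, the smallest that 3 arrays against 3 allow, and limma without the filter gave an unadjusted p of 0.130. WT 1 was by far the lowest of the 6 arrays there.

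Dlx2 gave the lowest unadjusted p of the 11 member probe sets over the filter. Its signals were 10.44, 10.67 and 10.67 in WT and 10.01, 10.44 and 10.46 in OC1-KO. OC1-KO was the lower of the 2 embryos of each number, by 0.42, 0.23 and 0.21 for numbers 1 to 3, yet OC1-KO 2 and 3 reached the level of WT 1. The fold was 0.821 with a 95% interval from 0.610 to 1.10 (limma, unadjusted p = 0.159, adjusted p = 1.00). With the embryo number as a block the log2 difference was -0.28, with an interval from -0.57 to 0.003 (limma, unadjusted p = 0.0519, adjusted p = 0.999). The same direction in 3 of 3 numbers was met by Dlx2 and by 1 probe set of Nr4a2 among the 11, against 23.4% of all probe sets. Dlx1, which shares its locus with Dlx2, gave 10.35, 10.44 and 10.52 in WT and 10.22, 10.41 and 10.56 in OC1-KO. Its difference was -0.04, with an interval from -0.41 to 0.32.

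Barhl2, a factor of amacrine subtype and ganglion cell identity, gave 7.55, 7.85 and 8.33 in WT and 7.56, 7.68 and 8.25 in OC1-KO. Within a number OC1-KO differed from WT by 0.01, -0.17 and -0.08, and the mean difference was -0.08, with an interval from -0.72 to 0.56. Lhx9, a LIM homeodomain factor, gave 7.12, 6.75 and 7.59 in WT and 7.48, 7.64 and 6.86 in OC1-KO. WT 3 lay with OC1-KO 1 and 2, and OC1-KO 3 lay between WT 1 and 2, and the difference was 0.18, with an interval from -0.51 to 0.86. Nr4a2 had 2 probe sets over the filter. The brighter, 1455034_at, gave 6.79, 8.01 and 7.69 in WT and 7.95, 7.45 and 7.52 in OC1-KO, and all of its OC1-KO values lay within the range of WT. The dimmer, 1447863_s_at, passed through its WT mean of 7.04 alone, and gave a difference of -0.06. The remaining 3 probe sets of Lhx9 and 4 of Nr4a2 were below the filter.

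**Figure D2:**
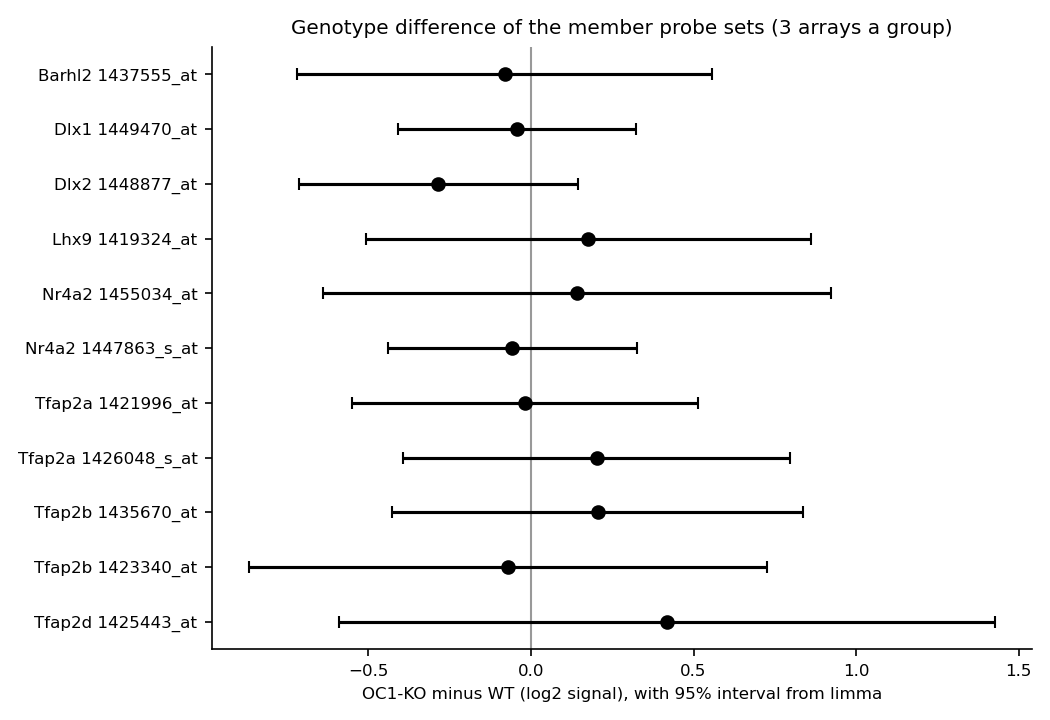
Difference of OC1-KO from WT in log2 signal for the 11 member probe sets over the filter, with the 95% interval from limma (3 arrays a group) as the bar. The estimates run from -0.28 for Dlx2 to 0.42 for Tfap2d and every interval holds 0.

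In Tfap2d, in Lhx9 and in 1 of the 2 probe sets over the filter of both Tfap2a and Tfap2b, the difference between the genotypes had the opposite sign in embryo 3 to that in embryos 1 and 2. For Tfap2d, OC1-KO was 1.34 higher than WT in embryo 1 and 0.53 higher in embryo 2, and 0.62 lower in embryo 3. For Lhx9 the differences were 0.36, 0.90 and -0.73 in the same order. Those of Tfap2b 1435670_at were 0.80, 0.23 and -0.42. Those of Tfap2a 1426048_s_at were 0.53, 0.42 and -0.34. These 4 were higher in OC1-KO in embryos 1 and 2 and lower in embryo 3. With Dlx1, whose differences of -0.14, -0.03 and 0.04 turned the other way, 5 of the 11 went in embryo 3 against embryos 1 and 2, and 24.2% of all probe sets did. Tfap2a 1421996_at, the brighter probe set of that gene, did not turn at embryo 3, with differences of 0.56, -0.30 and -0.32. Tfap2b 1423340_at, the dimmer of its gene, likewise gave 0.84, -0.27 and -0.78. The brightest probe set of Tfap2c, below the filter, went the other way with -0.69, -0.53 and 0.46. In each of the 4, OC1-KO 3 lay below WT 3 by at least 0.34. Dlx2 and Barhl2 had no such turn, with differences from -0.42 to -0.21 and from -0.17 to 0.01.

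**Figure D3:**
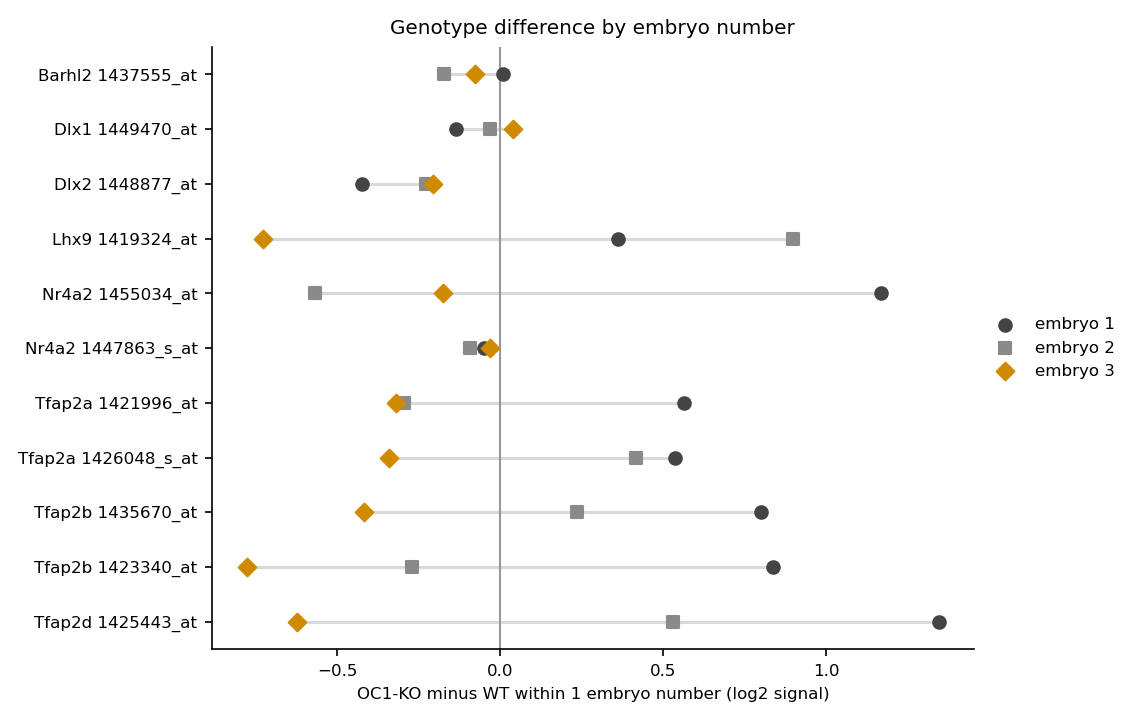
OC1-KO minus WT in log2 signal within each embryo number (black circles 1, grey squares 2, orange diamonds 3) for the 11 member probe sets over the filter. The orange diamonds of Tfap2d, Lhx9, Tfap2a 1426048_s_at and Tfap2b 1435670_at lie below 0 and both grey and black symbols above it, while the points of Dlx2 lie together between -0.42 and -0.21.

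With embryos 1 and 2 alone, 2 arrays a genotype, 3 of the 11 had an unadjusted p under 0.05 in limma. All 3 were higher in OC1-KO, against 1.21% of all probe sets in that direction. Of all 20888 probe sets, 252 were higher and 146 lower at that p. The 3 members were Tfap2d, by 0.94 (unadjusted p = 0.0307), Lhx9, by 0.63 (unadjusted p = 0.0290), and Tfap2a 1426048_s_at, by 0.48 (unadjusted p = 0.0325). Tfap2b 1435670_at was higher by 0.52 (limma, unadjusted p = 0.0777). None passed adjustment, with adjusted p = 1.00 in limma for each. The test of the change itself, the difference between the genotypes in embryo 3 minus that in embryos 1 and 2, was chosen after these values had been seen. It gave -1.56 ± 0.42 for Tfap2d (SE, limma, unadjusted p = 0.0164) and -1.35 ± 0.33 for Lhx9 (limma, unadjusted p = 0.0122). It gave -0.82 ± 0.26 for Tfap2a 1426048_s_at (limma, unadjusted p = 0.0284) and -0.93 ± 0.34 for Tfap2b 1435670_at (limma, unadjusted p = 0.0461). The remaining probe sets of these genes did not pass, with -0.45 for Tfap2a 1421996_at (limma, unadjusted p = 0.347) and -1.06 for Tfap2b 1423340_at (limma, unadjusted p = 0.103). Of the 11, 4 had an unadjusted p under 0.05, all lower, against 4.26% of all probe sets in that direction. Of all 20888 probe sets, 889 were lower and 258 higher at that p. At an adjusted p under 0.05 there were 0 of the 11, against 0.00479% of all probe sets, and the lowest adjusted p of a member was 0.784.

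Some other measures turned with these members and some did not. Lhx1, lower in OC1-KO by 2.33 and 3.25 in embryos 1 and 2, was 1.68 higher in embryo 3 by its brighter probe set. Its dimmer probe set differed by -0.02 in embryo 3. For Onecut1 by its brighter probe set the change was 1.00 (limma, unadjusted p = 0.0159). The dimmer probe set of Onecut1 had no such turn. Of 4 horizontal cell genes over the filter, 1, Onecut1, went in embryo 3 against embryos 1 and 2, against 24.2% of all probe sets. The same direction in 3 of 3 numbers was met by 2, against 23.4%. The change was higher in all 4, with a median of 0.41. Calb1, below the filter, differed by 0.24, 0.56 and -0.24 by its brightest probe set. Of 17 other genes of the amacrine network over the filter the change was lower in 11 and higher in 6, with a median of -0.19, while 54.5% of all probe sets were lower and their median was -0.03. At an unadjusted p under 0.05 in limma were 4 of the 17, all lower, against 4.26% of all probe sets in that direction. None passed adjustment, with a lowest adjusted p of 0.780. They were the bHLH factors Neurod4, at -1.14, and Neurod1, at -0.90, the GABA synthesis enzyme Gad2, at -0.93, and the glycine transporter gene Slc6a9, at -0.83. The highest of the 17 was Nr2f2, at 0.52. The lens, blood and pigment markers were high in both embryos 3. Pmel and the other pigment genes summed to 706 in WT 3 and 1889 in OC1-KO 3, against 249 to 538 in the other arrays. Over the filter, the change was lower in 4 of 4 lens genes, with a median of -1.70. It was higher in the 2 pigment genes, with a median of 0.82, and was 0.27 in the 1 blood gene. Those lens genes were higher in the embryos 3 by a median of 6.52, and the blood gene by 7.33. Their passing of the filter leaned on the embryos 3, and their genotype difference in embryos 1 and 2 rests on low signals. Their changes are therefore not read as a turn. The part of the lens, blood and pigment signal, and of the genotype labels of the embryos 3, in the members' change of sign was not tested.

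The comparison of embryo 3 with embryos 1 and 2 was chosen with the embryos 3 known from earlier results to stand apart. Against embryos 1 and 2, the embryos 3 of both genotypes were higher in Barhl2. It gave 8.33 in WT 3 and 8.25 in OC1-KO 3, against 7.55 to 7.85 in the other 4 arrays. The difference was 0.63 in WT and 0.63 in OC1-KO, and 0.63 ± 0.12 in the fit with genotype and number (SE, limma, adjusted p = 0.0388), a fold of 1.55 with a 95% interval from 1.26 to 1.90. Barhl2 was the 1 member of 11 at an adjusted p under 0.05, against 9.63% of all probe sets, and also the 1 member at an unadjusted p under 0.05, against 31.0%. Its call was lost when any array was left out, without the filter and with an intensity trend (adjusted p from 0.0545 to 0.279), with its size between 0.60 and 0.66. It held with quantile normalization, with an offset of 32 and without the genotype term (adjusted p from 0.0200 to 0.0342). Of 8 ganglion cell genes over the filter, 8 were higher in the embryos 3, by a median of 0.32, against 45.5% of all probe sets. The marker sums of lens, blood, mesenchyme, ectoderm and pigment cells were all higher there too. The part of any of these in the signal of Barhl2 was not tested.

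The embryos 3 lay above the other 4 arrays in Dlx1 too, with 10.52 and 10.56 against 10.22 to 10.44, a difference of 0.19 (limma, adjusted p = 0.333). Barhl2 and Dlx1 were the 2 of 11 whose embryos 3 lay both above or both below the other 4 arrays, against 38.4% of all probe sets. In Tfap2d the embryo 3 was 1.43 higher than embryos 1 and 2 in WT and 0.14 lower in OC1-KO. In Lhx9 it was 0.65 higher in WT and 0.70 lower in OC1-KO. Tfap2b 1435670_at was 0.14 higher in WT and 0.79 lower in OC1-KO. None of these had an adjusted p under 0.05 in the fit over both genotypes. A probe set of Lhx9 below the filter, 1431598_a_at, was at 6.04 and 6.25 in the embryos 3 and between 3.06 and 3.76 in the others, which the brighter Lhx9 probe set did not show.

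**Figure D4:**
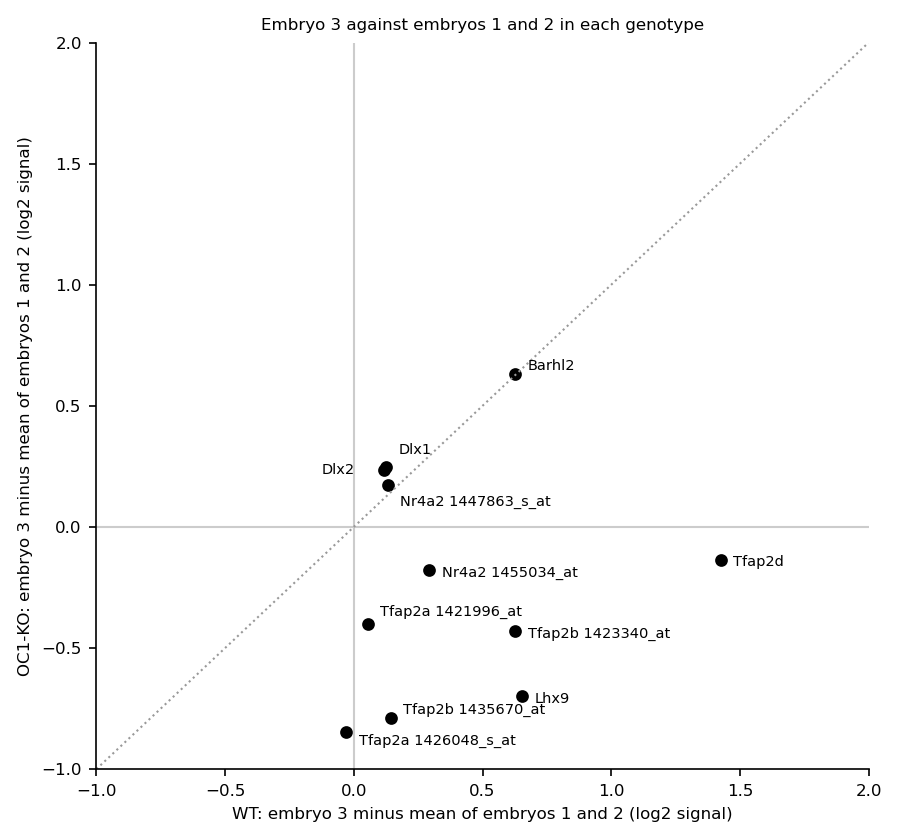
Embryo 3 minus the mean of embryos 1 and 2 in log2 signal, in WT (x axis) and in OC1-KO (y axis), for the 11 member probe sets over the filter, with equal values on the dotted line. Barhl2 lies on the line at 0.63 in both genotypes, and Tfap2d, Lhx9 and the probe sets of Tfap2a and Tfap2b lie below 0 on the y axis.

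**Figure D5:**
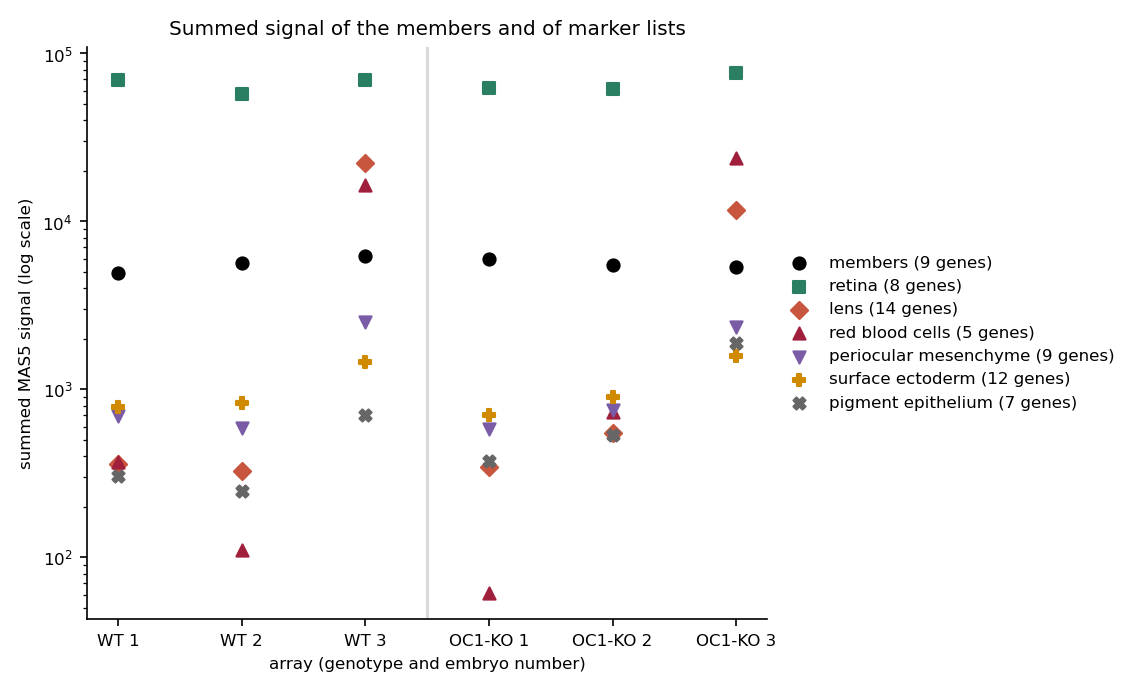
Summed MAS5 signal on a log axis in each array for the members, for the retina markers and for markers of lens, blood, periocular mesenchyme, surface ectoderm and pigment epithelium, with 1 probe set a gene. The members stay between 4950 and 6270 in all 6 arrays, while the lens and red blood cell sums are highest in WT 3 and OC1-KO 3.

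The marker lists moved as follows. Of 14 lens genes, 10 were higher in both embryos 3 than in all other arrays, as were 5 of 5 genes of red blood cells. The counts were 7 of 9 genes of periocular mesenchyme, 10 of 12 of surface ectoderm and 5 of 7 of pigment epithelium. They include genes below the filter, which was passed by 4 lens, 1 blood, 1 mesenchyme, 1 ectoderm and 2 pigment genes. Retina markers came to 3 of 8 and ganglion cell genes to 4 of 9. None of these 7 lists had a gene with both embryos 3 below all other arrays. Of all probe sets over the filter, 38.4% had both embryos 3 above or both below the other 4 arrays. That share holds both directions and leaves out probe sets below the filter, unlike the counts above, and the share for above alone is not given. Mesenchyme genes summed to 2534 in WT 3 and 2349 in OC1-KO 3, against 578 to 750 in the other arrays. Ectoderm genes, of which Tfap2a and Tfap2c are also known regulators, summed to 1464 and 1585, against 703 to 907. MAS5 gives no marker a value of 0. The 9 members together summed to 4950, 5682 and 6270 in WT and 5944, 5525 and 5364 in OC1-KO, so WT 3 was their highest array and OC1-KO 3 was not.

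The close relatives of the members were mostly dim. Of 10 (Tfap2e, Barhl1, Lhx2, Nr4a1, Nr4a3, Dlx3, Dlx4, Dlx5, Dlx6 and Bhlhe23), only Lhx2, the LIM homeodomain factor of retinal progenitors, passed the filter. It differed by -0.18 between the genotypes (limma, unadjusted p = 0.365) and by 0.31 in the embryos 3 (limma, adjusted p = 0.179). Tfap2e, the remaining AP-2 gene, lay between 1.17 and 2.85, far below the filter. Of 27 other genes of the amacrine network, 17 passed the filter, of which 6 were higher and 11 lower in OC1-KO, with a median of -0.08 and none at an unadjusted p under 0.05. With the embryo number as a block 1 of the 17, Gad2, had an unadjusted p under 0.05 in limma, against 4.37% of all probe sets.

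The largest of these was Gad2 at 8.82, 8.93 and 8.47 in WT and 8.54, 8.33 and 7.10 in OC1-KO. It was lower in OC1-KO in 3 of 3 numbers, with a mean difference of -0.75 (limma, unadjusted p = 0.0895, adjusted p = 1.00). With the block its unadjusted p was 0.0193 in limma (adjusted p = 0.999). In embryos 1 and 2 alone the difference was -0.44 (limma, unadjusted p = 0.0546), and in embryo 3 it was -1.37. OC1-KO 3 was the lowest array, and OC1-KO 1 lay above WT 3. The next by p were Nr2f2, at -0.36, and Ebf1, at -0.20. In the embryos 3, none of the 17 had an adjusted p under 0.05 by its brightest probe set. At an unadjusted p under 0.05 were 5 of the 17, against 31.0% of all probe sets. Nr2f1 (0.47) and Rorb (0.66) were higher and Gad2 (-0.87), Ptf1a (-0.36) and Calb2 (-0.43) lower, with adjusted p from 0.0819 to 0.141 in limma. Dimmer probe sets disagreed with these for 2 genes. Meis2 1440091_at differed by -1.73 (limma, adjusted p = 0.0200) and Meis1 1443260_at by -0.77 (limma, adjusted p = 0.0376), while their brightest probe sets differed by -0.03 and 0.04. Ptf1a, which sets amacrine and horizontal fates upstream of the AP-2 genes, gave 10.84, 11.03 and 10.67 in WT and 10.88, 10.85 and 10.41 in OC1-KO. Its difference between the genotypes was -0.13.

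Of 8 cofactors and regulators of AP-2 proteins, 6 passed the filter, 4 higher and 2 lower in OC1-KO, within -0.11 and 0.07. The lowest unadjusted p, 0.540 in limma, was that of the coactivator Ep300, at -0.11. Cited2 and Kctd1 followed, each at 0.07. In the embryos 3 all 6 were higher, by a median of 0.08, with none at an unadjusted p under 0.05 by its brightest probe set. A dimmer probe set of Wwox, 1431960_at, differed by -1.13 (limma, adjusted p = 0.0212), against 0.33 for the brightest.

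The patterns most like those of a bright and of a variable member were listed by Pearson's r of log2 signal over the 6 arrays. For Dlx2, the member of highest mean signal, they were Cherp (r = 0.985), A330009N23Rik (0.984), Hspa14 (0.983), Pgap6 (0.980) and Pdzd8 (0.977), among 197 probe sets over 0.9. For Tfap2d, the member of widest range over the filter, they were B4galt6 (r = 0.990), Gpr162 (0.989), Pik3r3 (0.985), Ncapg (0.981) and Esco1 (0.979), among 114 probe sets over 0.9. No other member was among them. All points share their arrays, and 6 arrays give many such values over 20888 probe sets.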

How the data were processed

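Total RNA of E14 retinas was amplified, biotinylated and hybridised by the authors, and the deposited values are linear MAS5 signal intensity, 1 column an array, scaled to a 2% trimmed mean near 500 in each array. MAS5 was run in R, per the study's methods. Genes were named through the platform annotation (34958 of 45101 probe sets with 1 symbol, of which 34754 were matched by gene number). Here log2 of the intensity was taken, 64 control probe sets were left out and probe sets whose log2 signals averaged over 7 in either genotype were kept, as in the study's methods. MAS5 corrects background probe set by probe set, so low signals vary widely, and the scaling makes all values relative to the array's own total.

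Genotypes were compared by limma 3.58.1 (R 4.3.3) in place of the methods' t-test, with p-values adjusted by Benjamini-Hochberg over all 20888 kept probe sets. The 95% intervals are limma's. A second fit held genotype and embryo number and compared embryo 3 with embryos 1 and 2. That comparison was chosen with earlier results of these data known, in which the embryos 3 stood apart. The change of the genotype difference with the number has 1 residual degree of freedom a probe set and rests on limma's pooled spread. The numbers were checked for pairing: deviations from the group means correlated at 0.509, 0.575 and 0.671 within a number and from -0.438 to -0.0371 between numbers, so the numbers were taken to pair the embryos. Deviations in a group sum to 0, so the values between numbers are pushed down where those within are positive. They are not separate support. The part of the lens and blood signal shared by the embryos 3 in the 0.671 was not tested. The fits were tested on simulated data.

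The probe set that stands for a gene was the brightest over the filter, or the brightest of all where none passed. All members are named. From the other lists, the 3 genes of lowest limma p in each contrast and any at an unadjusted p under 0.05 are named by that probe set, and the amacrine network genes, Onecut1 and Pmel named for the change with embryo number or for the block were named after their values were seen. Members and lists were chosen with earlier results of these data known. Alternatives were the filter, quantile normalization, an offset of 32, the methods' t-test, an intensity trend, the number as a block, the mean of a gene's probe sets and leaving out arrays. Nothing in the sources used here says that the embryos of a genotype came from separate litters, and 3 arrays a group limit the precision. Motifs were searched in Python 3.11.15.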

Additional observations from a re-analysis of the deposited data

Results flagged for a closer look

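The change of the genotype difference, embryo 3 minus embryos 1 and 2, had an unadjusted p under 0.05 in limma in 4 of the 11 member probe sets, all lower, as it did in 4.26% of all probe sets in that direction. The test was chosen after the values had been seen and leaves 1 residual degree of freedom. The change was -1.56 for Tfap2d 1425443_at, -1.35 for Lhx9 1419324_at, -0.93 for Tfap2b 1435670_at and -0.82 for Tfap2a 1426048_s_at on the log2 scale. No member passed adjustment over all probe sets, with a lowest adjusted p of 0.784. The other probe sets over the filter of Tfap2a and Tfap2b gave -0.45 (limma, unadjusted p = 0.347) and -1.06 (limma, unadjusted p = 0.103). The 4 changes were negative also with quantile normalization, an offset of 32, an intensity trend or no term for embryo 1 against 2. Of the 11, 3 to 5 then had an unadjusted p under 0.05, and Tfap2b 1435670_at missed it with quantile normalization (unadjusted p = 0.0547) and without that term (unadjusted p = 0.0690). Of all 20888 probe sets, 889 were lower and 258 higher at that p in the main fit, and 478 and 444 with quantile normalization. The counts were 815 and 261 with the offset, 719 and 330 with the trend and 472 and 137 without that term. Leaving out each array of embryos 1 and 2 in turn kept the change between -1.98 and -1.14 for Tfap2d, between -1.54 and -1.17 for Lhx9, between -1.20 and -0.67 for Tfap2b 1435670_at and between -0.86 and -0.78 for Tfap2a 1426048_s_at. Embryo 3 is 1 array a genotype, so WT 3 and OC1-KO 3 could not be left out, and the check does not bear on them.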

How the results depend on the processing

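At an unadjusted p under 0.05 in limma, 0 member probe sets differed between the genotypes. It was 3 with embryos 1 and 2 alone (Tfap2d, Lhx9, Tfap2a 1426048_s_at) and 0 to 1 with 1 array left out (1 without WT 3, Tfap2d, or OC1-KO 3, Tfap2a). Of all 20888 probe sets, 252 were higher and 146 lower with embryos 1 and 2 alone, 134 and 129 without WT 3, and 222 and 156 without OC1-KO 3. With the replicate block the count of members was 0, and over all probe sets 913 in place of 210, with 0 after adjustment in both. The block brought Gad2 and Pmel to an unadjusted p of 0.0193 and 0.00258 (limma), from 0.0895 and 0.0852, and changed no adjusted call. In the embryos 3, 1 member was called (Barhl2), and 0 with an intensity trend, with no filter, with a mean over 8, which drops Barhl2, and with any array left out (0 to 0). At an unadjusted p it was 1, then 0 over 8, 2 with no filter and 1 to 4 with an array left out. Over all probe sets 2012 were called in the embryos 3, 3871 with a trend, 0 with no filter or without OC1-KO 3, 1 without WT 3 and 7 without WT 2 or OC1-KO 2. The cause was not tested.

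Signs turned in differences that no fit called. For OC1-KO minus WT, Tfap2a gave 0.13 in embryos 1 and 2 and 0.092 as the mean of its probe sets. Leaving out an array gave -0.20 to 0.14 for Tfap2a, -0.058 to 0.47 for Tfap2b, -0.29 to 0.13 for Barhl2, -0.026 to 0.41 for Lhx9, -0.21 to 0.40 for Nr4a2 and -0.13 to 0.045 for Dlx1, while Dlx2 stayed between -0.36 and -0.14 and Tfap2d between 0.17 and 0.89. In the embryos 3, Lhx9 gave 0.14 by quantile normalization. Leaving out an array gave -0.40 to 0.054 for Tfap2a, -0.79 to 0.14 for Tfap2b, -0.14 to 1.43 for Tfap2d, -0.70 to 0.65 for Lhx9 and -0.33 to 0.44 for Nr4a2. Below the filter lay 11 of the 22 member probe sets, where signal over background limits what can be read.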
